A study of Zea mays with 4 samples.

Results

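The genes described here are 10 maize gene models for enzymes of lower glycolysis and ethanol fermentation, chosen by their identifiers among the 110028 gene models of each library. They are the alcohol dehydrogenase genes adh1 (GRMZM2G442658) and adh2 (GRMZM2G098346), the pyruvate decarboxylase gene pdc3 (GRMZM2G087186), the enolase genes eno1 (GRMZM2G064302) and eno2 (GRMZM2G048371), the aldolase gene ald1 (GRMZM2G057823), and the cytosolic glyceraldehyde-3-phosphate dehydrogenase (GAPDH) genes gpc1 (GRMZM2G046804), gpc2 (GRMZM2G180625), gpc3 (GRMZM2G071630) and gpc4 (GRMZM2G176307). All 10 models carry these enzyme names as listed by RefSeq for the assembly Zm-B73-REFERENCE-NAM-5.0, which also gives gpc1, gpc2 and gpc3 the names GAPC1, GAPC2 and GAPC3. The study sequenced 4 replicate libraries of 1 group, the central starchy endosperm of self-pollinated kernels of the inbred line B73, grown in a greenhouse, at 6 days after pollination (DAP). The tissue was taken by laser-capture microdissection, which cuts chosen cells out of a section, and its polyadenylated RNA was amplified. With 1 group there was no comparison between conditions. The labels do not say whether the replicates came from separate plants or ears, so SDs and p-values describe how far these libraries differ, and part or all of that may be technical.

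Glycolysis turns hexose phosphates into pyruvate with a net gain of ATP. When respiration cannot keep up, pyruvate decarboxylase converts pyruvate to acetaldehyde, and alcohol dehydrogenase reduces that to ethanol and returns the NAD+ that the GAPDH step consumes. The interior of a developing cereal endosperm is known to be poor in oxygen, and in maize seedlings adh1, eno1, gpc4 and cytosolic aldolase are known to be induced by a lack of oxygen, whereas eno2 is known as the constitutive enolase.

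The libraries held 3432952, 5428283, 4754684 and 5477465 recovered reads, in the order of replicates 1 to 4. Levels are in RPM, the reads of a model per 1000000 reads on all models of a library, given as mean ± SD over the libraries (n = 4) or for replicates 1 to 4 in that order. RPM is a share of reads and was not divided by transcript length, because no transcript lengths were used here. A longer transcript may thus give more reads at equal abundance, which was not examined. Whether reads that match several near-identical family members were split between them is not given in the sources used here, so the division of reads within a family carries that uncertainty. No other model came within 1% of any of the 10 genes in every library. In tissue samples like these, fewer cells of a type and less RNA per cell cannot be told apart. Intervals cover counting error alone, because RNA was amplified and no molecular identifiers mark the original molecules.

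The 10 genes took 1.78%, 1.57%, 1.81% and 1.97% of all reads in replicates 1 to 4, a mean of 1.79 ± 0.164% (n = 4). The share was highest in replicate 4 and lowest in replicate 2, a 1.25-fold range. The 95% Wilson intervals of the libraries, such as 1.56 to 1.58% in replicate 2 and 1.96 to 1.98% in replicate 4, were far narrower than this range. Of the 10 genes, 8 had a mean of at least 500 RPM and 5 of at least 1000 RPM, against 258 and 90 of all 110028 models. Their median mean level was 1434 RPM, beside 11.5 RPM over the 21181 models that averaged 1 RPM or more. The pair adh1 and eno1 alone took 0.853%, 0.714%, 0.928% and 1.09% of reads. The other 8 genes together took 0.931%, 0.859%, 0.887% and 0.881%, a 1.08-fold range, so most of the spread of the sum lay in adh1 and eno1. The 8 were not all steady one by one. In replicate 4 gpc3 and gpc1 were lowest while ald1 and gpc2 were highest, so these differences partly cancelled in the sum. The range was 1.58-fold for gpc3 and 1.52-fold for ald1.

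**Figure D1:**
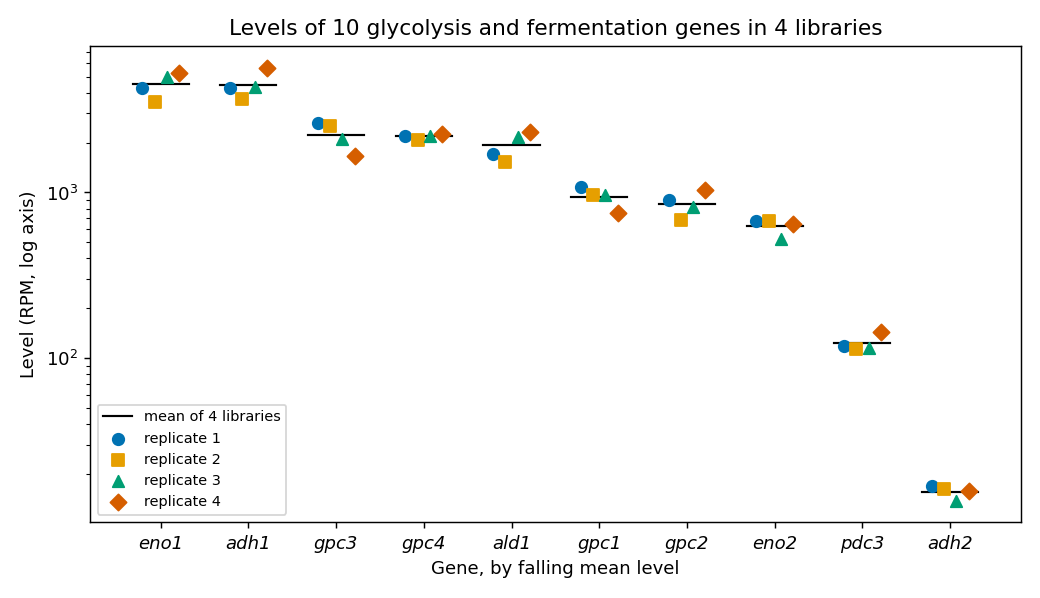
Level of each of the 10 genes in RPM on a log axis, with 1 point per replicate library and a black line at the mean of the 4 libraries. The genes span from 4492 RPM for eno1 to 15.7 RPM for adh2, and the points of a gene lie within 1.58-fold of each other.

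By enzyme step, the 4 GAPDH genes together held the highest share of reads, 0.620 ± 0.0469% (n = 4). The 2 enolase genes followed with 0.512 ± 0.0755%, the 2 alcohol dehydrogenase genes with 0.449 ± 0.0849%, aldolase with 0.193 ± 0.0377% and pyruvate decarboxylase with 0.0123 ± 0.00143%. This order rests on the libraries unequally. The GAPDH share was 0.680%, 0.627%, 0.605% and 0.568% in replicates 1 to 4 and so lowest in replicate 4, whereas enolase, alcohol dehydrogenase, aldolase and pyruvate decarboxylase were each highest in replicate 4. The place of GAPDH depends on the scaling. With edgeR's TMM scaling of library sizes, used below, its share was lowest in replicate 3 instead, with an SD of 0.0263%. The other steps stayed highest in replicate 4. The ratio of enolase to GAPDH reads was 0.722, 0.664, 0.910 and 1.04, so enolase exceeded GAPDH in replicate 4 only. The ratio of alcohol dehydrogenase to GAPDH reads was 0.633, 0.584, 0.712 and 0.999. The ratio of enolase to aldolase reads moved less, with 2.90, 2.72, 2.54 and 2.54.

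**Figure D2:**
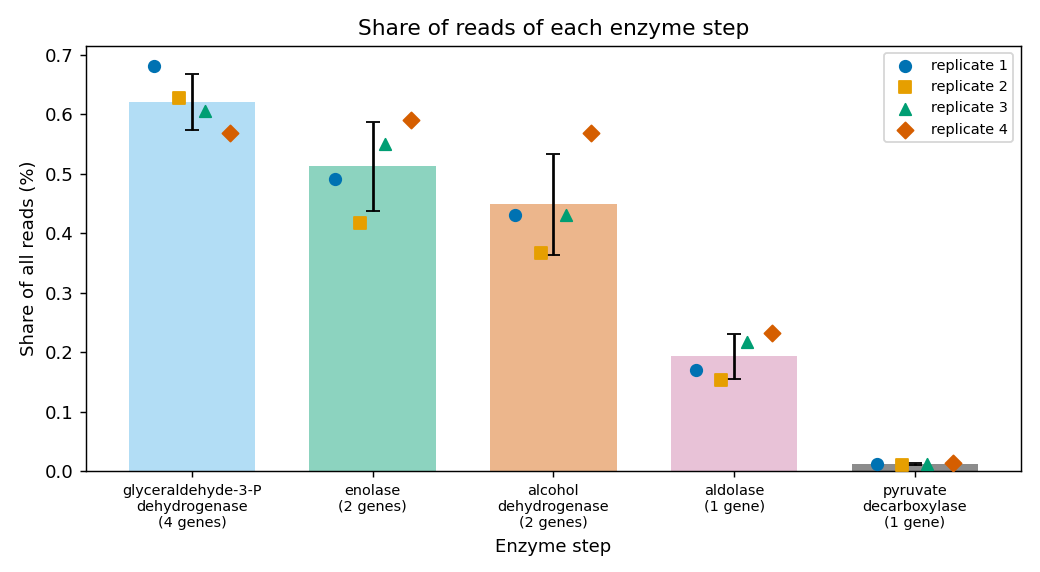
Share of all reads (%) held by each enzyme step, summed over its genes. Bars give the mean of 4 libraries with the SD as error bar, and points give the libraries. GAPDH is lowest in replicate 4 at 0.568%, the other 4 steps are highest there. With TMM scaling GAPDH is lowest in replicate 3 instead.

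Aldolase splits fructose 1,6-bisphosphate into triose phosphates and stands first among these steps. The gene ald1 had 1696, 1530, 2166 and 2326 RPM in replicates 1 to 4, a mean of 1929 ± 377 RPM. Replicates 3 and 4 lay above replicates 1 and 2, a 1.52-fold range from the lowest to the highest library. It was the only aldolase model that the reference names by the symbol patterns used, and other aldolase models were not analysed here.

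GAPDH oxidises glyceraldehyde 3-phosphate and yields the NADH that fermentation must reoxidise. Among its cytosolic genes, gpc3 had 2629, 2533, 2092 and 1659 RPM, a mean of 2228 ± 446 RPM. It was highest in replicate 1 and lowest in replicate 4, a 1.58-fold range that was the widest of the 10 genes in RPM. With TMM scaling its range was 1.42-fold, and that of adh1, 1.73-fold, was the widest. Gene gpc4 had 2205, 2084, 2176 and 2238 RPM, a mean of 2176 ± 66.1 RPM. With a 1.07-fold range it was the steadiest of the 10 in RPM. Its SD of log2 levels, 0.04, exceeded that of 1.36% of the 11272 models with a mean of 10 RPM or more. How steady gpc4 was depends on the scaling. With TMM scaling its SD was 168 RPM in place of 66.1 RPM. Its range was then wider, though still the narrowest of the 10. The 1.36% applies to levels without TMM scaling only.

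The other pair of GAPDH genes stood lower. Gene gpc1 had 1076, 963, 967 and 751 RPM, a mean of 939 ± 136 RPM, lowest in replicate 4 like gpc3. Gene gpc2 had 895, 685, 814 and 1034 RPM, a mean of 857 ± 146 RPM. It was highest in replicate 4 and lowest in replicate 2, which is the pattern of adh1 and not that of gpc1 or gpc3.

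Isoform dominance was compared as the log2 ratio of (RPM + 0.5) of 2 family members within each library, over 9 pairs in all. An exact two-sided sign-flip permutation test over 4 libraries cannot go below p = 0.125, so no pair could pass 0.05. Each p below is followed by its Benjamini-Hochberg value over the 9 pairs. Gene gpc3 exceeded gpc1 by a log2 ratio of 1.23 ± 0.13 (SD, n = 4) and gpc2 by 1.37 ± 0.51, and gpc4 exceeded them by 1.22 ± 0.24 and 1.36 ± 0.21. Each of these 4 ratios was positive in all libraries (each with exact permutation p = 0.125 and adjusted p = 0.161). The GAPDH family thus had a higher and a lower pair of genes in every library.

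Within each pair the order was not fixed. The log2 ratio of gpc3 to gpc4 was 0.25, 0.28, -0.06 and -0.43, a mean of 0.01 ± 0.33 (exact permutation p = 1, adjusted p = 1), which turned negative without replicate 1 (-0.069) or without replicate 2 (-0.078). That of gpc1 to gpc2 was 0.27, 0.49, 0.25 and -0.46, a mean of 0.14 ± 0.41 (exact permutation p = 0.5, adjusted p = 0.563). In replicate 4 both ratios were negative, so gpc4 and gpc2 were the higher genes of their pairs there.

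These ratios do not depend on how libraries are scaled to each other. As shares of the GAPDH reads of a library, gpc3 held 38.6%, 40.4%, 34.6% and 29.2%, and gpc4 32.4%, 33.3%, 36.0% and 39.4%. Gene gpc1 held 15.8%, 15.4%, 15.99% and 13.2%, and gpc2 13.2%, 10.9%, 13.5% and 18.2%. The 95% Wilson interval of the gpc2 share in replicate 4, 17.8 to 18.6%, lay above those of the other libraries, of which the highest was 13.1 to 13.9% in replicate 3. The interval of the gpc3 share in replicate 4, 28.7 to 29.7%, lay below all others.

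**Figure D3:**
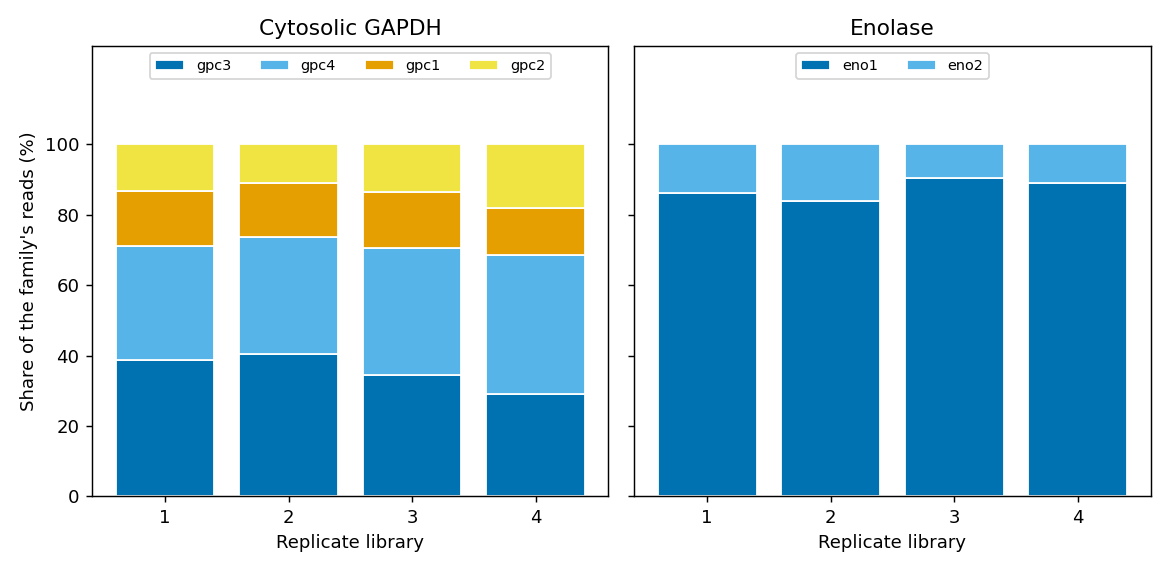
Share of the reads of the cytosolic GAPDH family (left) and of the enolase family (right) that each gene held, in %, for each replicate library. The gpc3 share is 29.2% in replicate 4 and 34.6 to 40.4% in the others, and eno1 holds 83.9 to 90.5% of enolase reads.

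Enolase makes phosphoenolpyruvate, the precursor of pyruvate. Gene eno1 had 4241, 3495, 4981 and 5252 RPM, a mean of 4492 ± 790 RPM, and ranked between 5 and 10 among all models of a library. Gene eno2 had 673, 668, 522 and 646 RPM, a mean of 627 ± 71.1 RPM. The highest eno2 library lay well below the lowest eno1 library, and replicate 3, the lowest for eno2, was the second highest for eno1.

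The log2 ratio of eno1 to eno2 was 2.66, 2.39, 3.25 and 3.02, a mean of 2.83 ± 0.38, or 7.11-fold (exact permutation p = 0.125, adjusted p = 0.161), with the same sign in every library. As a share, eno1 held 86.3%, 83.9%, 90.5% and 89.0% of enolase reads. The Wilson intervals of replicates 3 and 4, 90.2 to 90.9% and 88.7 to 89.4%, lay above those of replicates 1 and 2, 85.8 to 86.8% and 83.5 to 84.4%. The eno1 form, known from seedlings as the one induced without oxygen, was thus the major enolase transcript in every library, with a share that varied beyond counting error.

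Pyruvate decarboxylase commits pyruvate to ethanol. Gene pdc3 had 119, 113, 116 and 144 RPM, a mean of 123 ± 14.3 RPM from 410 to 791 reads per library. Replicate 4 stood above the other 3 libraries, which lay close together. The family member pdc2 (GRMZM2G038821) had 1, 0, 4 and 4 reads, at most 0.841 RPM, which is near the level of 3 reads (0.548 to 0.874 RPM). Over all libraries 2368 reads of pdc3 stood against 9 of pdc2, a ratio of 263 (exact 95% interval 138 to 576, counting error only). The fitted log2 ratio of 7.10 ± 0.59 (exact permutation p = 0.125, adjusted p = 0.161) depends on the pseudocount, since pdc2 was near 0. The reference pairs no model of these libraries with pdc1, which was not analysed here.

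Alcohol dehydrogenase closes the fermentation pathway. Gene adh1 had 4288, 3643, 4295 and 5660 RPM, a mean of 4471 ± 849 RPM, and ranked between 5 and 8 among all models of a library. Gene adh2 had 16.9, 16.2, 13.9 and 15.9 RPM, a mean of 15.7 ± 1.29 RPM from 58 to 88 reads per library, and ranked between 8401 and 9604. The values of the pair lay far apart in every library, with ratios of 254, 225, 309 and 356.

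The mean log2 ratio of adh1 to adh2 was 8.09 ± 0.29, or 273-fold (exact permutation p = 0.125, adjusted p = 0.161), with the same sign in every library. Gene adh2 held 0.392%, 0.443%, 0.322% and 0.280% of alcohol dehydrogenase reads. Both genes are known to be induced together in maize seedlings without oxygen, and here nearly all reads of the pair came from adh1. The ratio of alcohol dehydrogenase reads (adh1 and adh2) to pdc3 reads was 36.0, 32.3, 37.1 and 39.3, with length not divided out. It is not a ratio of whole enzyme steps, because pdc1 was not analysed here.

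In order of mean RPM the genes were eno1, adh1, gpc3, gpc4, ald1, gpc1, gpc2, eno2, pdc3 and adh2. Several neighbours could not be told apart. Although eno1 had the higher mean, adh1 was higher in replicates 1, 2 and 4, and the log2 ratio of eno1 to adh1 was 0.01 ± 0.14. The ratio of gpc4 to ald1, 0.19 ± 0.25, was positive in 3 of 4 libraries, and the pairs gpc3 and gpc4, and gpc1 and gpc2, changed order as given above. The other 5 neighbouring pairs kept their order in 4 of 4 libraries, though gpc2 exceeded eno2 by only 0.04 on the log2 scale in replicate 2.

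Levels of the 10 genes differed between libraries by more than counting error in most cases. When recovered reads were set against effective library sizes from edgeR's TMM scaling in a chi-square test, 9 of 10 genes differed (Benjamini-Hochberg adjusted p under 0.05), where 44.3% of the 16516 models tested did. Among the 258 models with a mean of 500 RPM or more, 98.1% differed, so at this depth a call is what nearly all abundant models give. The exception was adh2 (edgeR TMM scaling, adjusted p = 0.676), whose 58 to 88 reads per library limit what could be detected. The same number, 9 of 10, was called without replicate 3, where 40.9% of all models and 93.4% of the 258 abundant ones were. Without replicate 4, 8 of 10 were called beside 17.4% of all models and 86% of the abundant ones, and pdc3 was the call lost, with an adjusted p of 0.719 (edgeR TMM scaling) against 5.25e-11 with all libraries. Without replicates 3 and 4 together, a choice made after the data were seen, 7 of 10 were called beside 6.35% of all models and 56.6% of the abundant ones.

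In size the spread was moderate. The SD of log2(RPM + 0.5) had a median of 0.23 over the 10 genes, beside 0.22 over the 11272 models that averaged at least 10 RPM and 0.15 over the 258 with a mean of 500 RPM or more. The SD was 0.30 for gpc3, 0.29 for ald1, 0.26 for eno1 and for adh1, 0.25 for gpc2 and 0.22 for gpc1. It was 0.17 for eno2, 0.16 for pdc3 and 0.12 for adh2. Genes gpc3, ald1, eno1 and adh1 exceeded more than 80% of the 258 abundant models in this SD. With TMM scaling the median over the 10 genes was again 0.23, though adh1 then had a wider range than gpc3. Without replicate 4 the median over the 10 genes was 0.16.

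**Figure D4:**
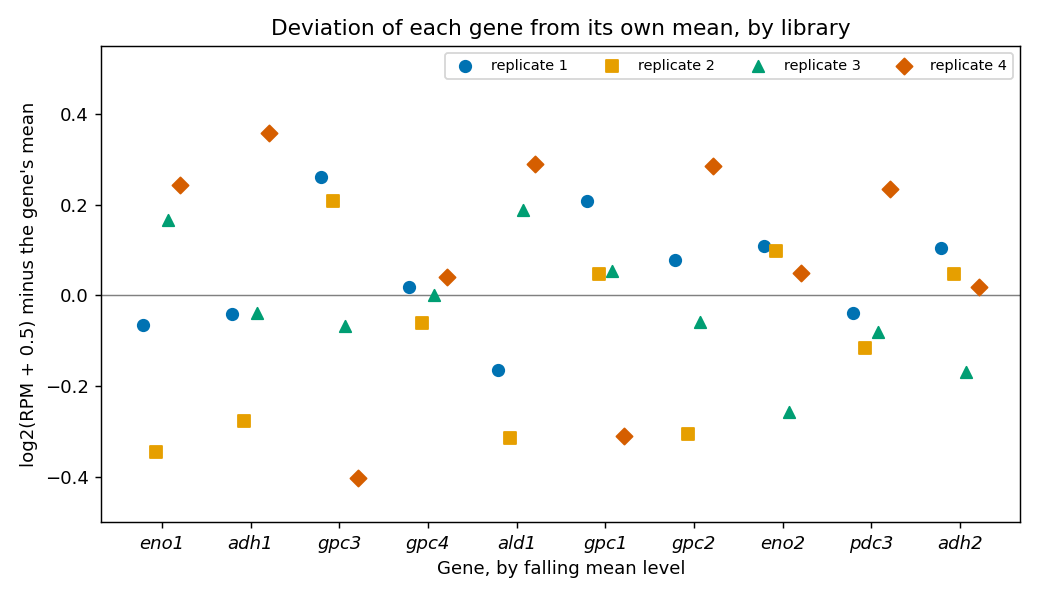
Deviation of log2(RPM + 0.5) from the gene's own mean, with 1 point per replicate library. Replicate 4 lies highest for eno1, adh1, gpc4, ald1, gpc2 and pdc3 and lowest for gpc3 and gpc1, at -0.40 and -0.31.

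The 10 genes did not move as one. Replicate 4 was the highest library for 6 of them (adh1, eno1, ald1, pdc3, gpc2 and gpc4) and the lowest for gpc3 and gpc1, and replicate 2 was the lowest for those 6. Among the 1816 models with a mean of 100 RPM or more, replicate 4 was highest for 37.9% and lowest for 36.8%, and replicate 2 was lowest for 24.8%. Among the 258 with a mean of 500 RPM or more, replicate 4 was highest for 39.5% and replicate 2 lowest for 34.9%. With TMM scaling, which raised all levels of replicate 4 by 0.11 on the log2 scale, replicate 4 was highest for 8 of the 10 genes, adh2 and eno2 included, and for 55.1% of the 1816 models. Replicate 2 was then lowest for 6 genes, beside 29.6% of the 1816 models and 39.9% of the 258. Genes gpc3 and gpc1 were lowest in replicate 4 under both scalings.

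Replicate 4 also stood apart in markers of other cells of the kernel. Of 10 markers of the basal transfer layer, 7 matched a single model and all 7 averaged 1 RPM or more. Their summed level was 267, 578, 475 and 33.4 RPM in replicates 1 to 4. Of 4 markers of the embryo-surrounding region 3 matched, with sums of 29.4, 33.9, 22.9 and 1.64 RPM. The 9 matched starchy endosperm markers summed to 2789, 2313, 2252 and 1588 RPM, most of it fl3 with a mean of 2092 RPM. Gene fl3 was at 2674, 2188, 2107 and 1400 RPM. In contrast, the other 8 summed to 115, 126, 146 and 188 RPM, highest in replicate 4. Most of that rise came from nkd1, with 44.0, 44.8, 69.6 and 105 RPM. Of the rest, ohp1, nkd2 and gz27 were also highest in replicate 4, whereas ohp2 and bt2 were lowest there. Of the 9, 6 averaged 1 RPM or more, and the storage programme activator o2 was at 0. The 6 aleurone markers summed to 135, 134, 127 and 109 RPM, lowest in replicate 4, with c1 and r1 at 0. The 5 matched embryo markers summed to 25.3, 26.2, 31.5 and 45.5 RPM, with wox5b and glb2 at 0. This embryo sum was highest in replicate 4, as were ole1 and wox2a, which made up nearly all of it. Of 4 matched models for maternal and green tissue none averaged 1 RPM, with a highest sum of 1.46 RPM and rbcs1 and bde1 at 0. The part of this makeup in the levels of the 10 genes was not tested. Without replicate 4 the mean levels were 4075 RPM for adh1 and 2418 RPM for gpc3.

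Likeness to adh1 was measured as the root mean square difference of log2 levels, each centred on its own mean, over the 4 libraries and among 1815 models with a mean of 100 RPM or more. Of the other genes described here gpc2 was nearest to adh1 (0.07, rank 57), followed by pdc3 (0.10, rank 148), eno1 (0.12, rank 226) and ald1 (0.14, rank 284). The farthest were gpc1 (0.39, rank 1494) and gpc3 (0.48, rank 1679). The 5 nearest of 274 models with a gene name were the profilin gene PRO4 (rank 1, 0.03), CesA-6 (rank 9), ae1 (rank 14), btf3 (rank 27) and the elongation factor gene EF1-A (rank 31). PRO4 had 2230, 1994, 2281 and 2992 RPM, highest in replicate 4 and lowest in replicate 2 as adh1 was. With 4 libraries of 1 group such likeness describes these libraries only.

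Other genes of the pathway were taken from a list of 16 roles by symbol. It matched 19 models beside the 10 genes, after 4 with unclear names were left out, and 5 roles had no matched model. The unmatched roles were triosephosphate isomerase, phosphoglycerate kinase, phosphoglycerate mutase, pyruvate kinase and lactate dehydrogenase. Aldehyde dehydrogenases made up 12 of the 19 models and GAPDH of plastids 2. Counts and the median over the list thus do not describe the remaining steps of glycolysis. Of the 19, 10 had a mean of at least 1 RPM, 7 of at least 10 RPM and 2 of at least 100 RPM, with a median of 3.15 RPM. Of all gene models, 19.3% had a mean of at least 1 RPM, 10.2% of at least 10 RPM and 1.65% of at least 100 RPM. Of the models with a read in any library, 56.3%, 29.9% and 4.82% reached these levels. Upstream, the glucose-6-phosphate isomerase gene phi1 had 75.4 ± 9.39 RPM, the hexokinase gene hex2, which phosphorylates glucose, 9.50 ± 1.94 RPM and the phosphofructokinase gene pfk1 7.34 ± 2.48 RPM. Length was not divided out of these levels, and other models of these enzymes were not analysed here.

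The photosynthetic GAPDH genes of plastids were close to 0. Gene gpa1 had no read in any library, where 3 reads among the 19093384 reads of all libraries would be 0.157 RPM. Gene gpb1 had 1 read in replicate 4. GAPDH reads of the named models thus came almost wholly from the cytosolic genes. Among genes for aldehyde dehydrogenases, ALDH7 had 546 ± 34.0 RPM, ALDH10A9 73.7 ± 4.56 RPM and rf2, a mitochondrial form that can oxidise acetaldehyde, 29.6 ± 4.08 RPM. Of the 19 models, 9 passed the filter of the chi-square test and 3 of those differed between libraries, no larger a share than the 44.3% of all models tested. They were pfk1 (edgeR TMM scaling, adjusted p = 0.0423), a model named ALDH10A8 (GRMZM2G146754, adjusted p = 0.000851) and the pyruvate dehydrogenase gene PDHE1-B.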

How the data were processed

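Polyadenylated, amplified RNA of 4 libraries was sequenced in 1 flow cell lane, per the labels' protocols. The deposited values are a signal per gene model, scaled by the authors so that each library sums to 4773346. Every value above 0 (100%) was a whole multiple of a step, the smallest value of its library, within 0.01 of a read, and dividing by the step gave reads. In replicate 3 the step, 1.00392, lies close to 1, so read tests are also given without it. The use of bedtools is recorded, per the submitters' processing notes. Aligner, build, annotation and strandedness were not given in the sources used here.

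RPM, within-library log2 ratios (pseudocount 0.5 RPM), Wilson intervals and exact sign-flip tests were computed in Python 3.11.15 with scipy 1.17.1. The chi-square test used edgeR 4.0.16 for TMM scaling and filtering in R 4.3.3. It compares libraries, not conditions, and was tested on simulated data. Alternatives were DESeq2 1.42.0 size factors, other totals, pseudocounts, no filter and leaving out each replicate. RefSeq paired 18787 models with a record. The planned levels per coding length and the promoter search were not run, because no sequences were used here.

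The members, lists and tests were chosen with earlier results of these data known. Named are the 10 genes, the 3 highest models of each pathway role, further family members and the 5 named models most like adh1. GRMZM2G146754 was chosen after its values were seen.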

Additional observations from a re-analysis of the deposited data

How the results depend on the processing

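Of 2 scalings, 2 totals, 2 pseudocounts, no filter and each library left out, few changed a mean, ratio or count. Spreads between libraries moved more. With TMM scaling the SD of the summed share was 0.252% against 0.164%, and that of the GAPDH share 0.0263% against 0.0469%. The gene of widest range was then adh1 in place of gpc3. The lowest library for GAPDH was replicate 3 in place of replicate 4. A total without the 10 most abundant models, which include adh1 and eno1, raised the summed read share to 1.96% and the GAPDH share to 0.681%, since the total shrank. The log2 ratio of gpc3 to gpc4 turned to -0.069 without replicate 1 and -0.078 without replicate 2, and over all single libraries left out it ranged from -0.078 to 0.16. The count of genes that differed between libraries stayed between 8 and 9 of 10 when any single library was left out, and was 7 without replicates 3 and 4 together, an alternative chosen after seeing the data. The log2 ratio of pdc3 to pdc2 was 8.20 with a pseudocount of 0.1 RPM and 6.44 with 1 RPM. No paired analysis was possible because there was 1 group. Levels per length were not run. Depth limits statements on adh2 and pdc2.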

Other observations

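Mitochondrial pyruvate dehydrogenase, which feeds pyruvate to the citric acid cycle in place of fermentation, was represented by the E1 beta subunit gene PDHE1-B (GRMZM2G043198). It had 204, 211, 180 and 132 RPM in replicates 1 to 4, a mean of 182 ± 35.7 RPM, and was lowest in replicate 4, where adh1 and pdc3 were highest. Replicate 4 was lowest for 36.8% and highest for 37.9% of the 1816 models with a mean of 100 RPM or more. A link between these genes was not tested. PDHE1-B differed between libraries beyond counting error (chi-square with edgeR TMM scaling, adjusted p = 1.1e-12). A model that the reference names pdh1 (GRMZM2G361693) had 76.6, 79.4, 86.9 and 114 RPM and was highest in replicate 4 (chi-square with edgeR TMM scaling, adjusted p = 1.58e-16). The name pdh1 is also carried by GRMZM2G145715, at 19.97 ± 1.67 RPM, so the role of either model is uncertain here.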
